A study of Mus musculus with 4 samples.

Results

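The 9 complement genes described here were C1qa, C1qb and C1qc, which encode the chains of C1q, C3, C4b, C6, C8a, C9 and Masp1. They were chosen as a list and taken by symbol from the 32285 genes of the deposited matrices, where each of the 9 matched 1 gene. Another 44 complement genes, among them lectins, proteases, regulators and receptors, were listed beside them. The assay was single-nucleus RNA sequencing, a droplet method that reads transcripts of nuclei one by one, on non-tumor liver of male mice aged 12 months. All mice had received the liver carcinogen diethylnitrosamine (DEN) at 25 mg/kg when 14 days old. The 4 libraries were labelled Brca1-WT (n = 2) and Brca1-KO (n = 2), and Brca1 is a DNA repair gene. The labels call them biological replicates and name a 10x Genomics 3′ kit; no source used here gives the allele, the Cre driver or the deleted part of Brca1, and p-values measure only the spread between these libraries. The question put to the data was which cell class of the liver holds the transcripts of each complement gene, and whether its level differed between the labels.

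Complement is a cascade of plasma proteins that marks microbes and dying cells. In the classical pathway C1q binds antibody or altered surfaces and its partner proteases cleave C4 and C2. In the lectin pathway collectins, ficolins and mannose-binding lectins bind sugars, with MASP proteases in the place of C1r and C1s. Both routes lead to cleavage of C3, the protein on which all pathways converge, and then to the assembly of C5b, C6, C7, C8 and C9 into a membrane pore. Hepatocytes make most of the complement protein of plasma, while C1q is made mainly by macrophages and dendritic cells. Kupffer cells are the resident macrophages of liver sinusoids, and stellate cells are the vitamin A-storing mesenchymal cells beside them.

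After filters 23868 nuclei remained, 4795 to 6970 per library, with median depths of 3464.5 to 4748.5 UMIs, unique molecular identifiers that each stand for 1 captured transcript. Clusters were named only from markers that hold no complement gene, and complement genes were kept out of the clustering. The classes used were hepatocyte-like (13476 nuclei), endothelial-like (5001), Kupffer-like (1743), stellate-like (1584) and B cell-like (498). Cluster 10 (787 nuclei) held T cell and NK cell markers alike, cluster 11 (389) both stellate and collagen-rich mesenchymal markers, and cluster 16 (232) both neutrophil and dendritic markers, so these 3 kept their numbers; together the 8 held 23710 nuclei. The library labelled Brca1-KO replicate 2 stood apart: 86.6% of its hepatocyte-like nuclei lay in clusters 4, 5 and 7, against 2.68 to 11.2% in the other 3 libraries. In hepatocyte-like nuclei Brca1 itself went against 1 label. It stood there at 13.4 and 12.4 CPM (UMIs of the gene in 1000000 UMIs of the class) in the 2 Brca1-WT replicates. The values were 18.6 in Brca1-KO-labelled replicate 1 and 5.78 in Brca1-KO-labelled replicate 2. Both Brca1-KO-labelled libraries were higher in endothelial-like (6.04 and 5.14 against 2.43 and 4.7) and Kupffer-like nuclei (6.72 and 5.35 against 1.29 and 1.32). Both were lower in clusters 11 and 16. Outside hepatocyte-like nuclei these values rested on 0 to 12 UMIs per library. UMIs come from the 3′ part of transcripts, so a deletion elsewhere in the gene may leave its count unchanged, and directions below are those of the labels. Of 26501 distinct deposited barcodes, 90 occurred in more than 1 library.

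Transcripts of hepatocytes were found in all other classes. To set a scale, the level of 15 genes of hepatocytes, such as Alb (albumin), Apob and Fga, was divided by their level in hepatocyte-like nuclei of the same library. The median of this ratio was 0.200 to 0.254 in stellate-like nuclei and cluster 11, 0.263 to 0.384 in Kupffer-like nuclei and up to 0.664 in B cell-like nuclei. A complement gene within the range of this panel is not told apart from hepatocyte RNA carried into other droplets. All levels below are CPM within a library, given first for Brca1-WT replicates 1 and 2 and then for the other label in the same order. Levels are not divided by gene length, so they are compared between classes and libraries and not between genes. The members had been chosen with their pattern across classes known, so these levels are a description without a test.

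The C1q genes were highest in Kupffer-like nuclei. C1qa (ENSMUSG00000036887), the A chain, stood at 133 and 214 CPM in the 2 Brca1-WT replicates and at 203 and 162 in the Brca1-KO-labelled ones (178 ± 37.6, SD, n = 4). C1qb (ENSMUSG00000036905), the B chain, stood at 159 and 182, and at 131 and 169 CPM (160.3 ± 21.8). C1qc (ENSMUSG00000036896), the C chain, stood at 103 and 114, and at 126 and 93.2 CPM (109 ± 14.1). In each of the 4 libraries every C1q gene was higher in Kupffer-like nuclei than in the class of the next highest mean, B cell-like nuclei, where the means were 7.05 to 7.58 CPM and rested on 0 to 4 UMIs per library. The Kupffer-like mean was 24.6 times that of B cell-like nuclei for C1qa, 21.2 times for C1qb and 15.5 times for C1qc.

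The counts behind the C1q levels were low, at 75 to 162 UMIs per gene and library. With each nucleus thinned to 1000 UMIs, 32.1% (Clopper-Pearson 95% interval 27.2 to 37.3%) and 42.2% (36.8 to 47.7%) of Kupffer-like nuclei in the 2 Brca1-WT replicates held a UMI of at least 1 of the C1q genes. This share was 35.7% (29.96 to 41.7%) and 35.3% (30.9 to 39.9%) in the Brca1-KO-labelled libraries. In hepatocyte-like nuclei the same share was 0.217 to 0.399%. Thinning left out 60, 110, 61 and 112 shallower Kupffer-like nuclei; the unthinned shares were 47.01 to 54.3% in Kupffer-like nuclei at median depths of 1429 to 1704 UMIs and 1.05 to 2.08% in hepatocyte-like nuclei at 5949.5 to 9513. The intervals cover counting error only.

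The Kupffer-like class also held the C1q transcripts in absolute number. Of the UMIs of C1qa in all kept nuclei, 57.9 to 87.3% lay in Kupffer-like nuclei, with the lowest share in Brca1-WT replicate 1. The far more numerous hepatocyte-like nuclei held 8.57 to 16.8%. Not among the 8 classes was cluster 18, whose 61 nuclei all came from Brca1-WT replicate 1. It scored nearly alike for endothelial and Kupffer markers, with Cd5l and Clec4f among its top genes. Its part in the lowest share was not tested. In hepatocyte-like nuclei C1qa stood at 0.411 to 1.22 CPM. This was 1.63 to 3.68 times the level expected from 6 Kupffer genes (Clec4f, Cd5l, Timd4, Marco, Adgre1 and Cd163) found in the same nuclei. Its ratio to Kupffer-like nuclei lay above every gene of this panel in 4 of 4 libraries. Those of C1qb and C1qc did so in 3 of 4. These levels rested on 8 to 36 UMIs per gene and library, and their source was not tested. The naming of the class did not use C1q: the 8 Kupffer markers summed to 4748 to 7555 CPM there and to 6.72 to 18.3 in hepatocyte-like nuclei.

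The start regions of 2 C1q genes are shown because both genes were highest in the same class. They are RefSeq sequences of build GRCm38.p6 from 250 bases before to 50 bases after the annotated start, 5′ to 3′ on the gene's strand. The C1qb window lies at chr4:136886151-136886450 and the C1qc window at chr4:136892865-136893164, both on the minus strand. Capitals mark GAGGAA, a core that the macrophage factor PU.1 is known to bind, read on either strand.
C1qb: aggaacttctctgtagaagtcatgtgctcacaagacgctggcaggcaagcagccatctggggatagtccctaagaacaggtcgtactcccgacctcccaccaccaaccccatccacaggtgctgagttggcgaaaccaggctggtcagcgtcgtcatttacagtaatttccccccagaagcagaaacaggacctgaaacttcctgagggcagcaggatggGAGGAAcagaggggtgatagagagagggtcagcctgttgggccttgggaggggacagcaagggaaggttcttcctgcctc
C1qc: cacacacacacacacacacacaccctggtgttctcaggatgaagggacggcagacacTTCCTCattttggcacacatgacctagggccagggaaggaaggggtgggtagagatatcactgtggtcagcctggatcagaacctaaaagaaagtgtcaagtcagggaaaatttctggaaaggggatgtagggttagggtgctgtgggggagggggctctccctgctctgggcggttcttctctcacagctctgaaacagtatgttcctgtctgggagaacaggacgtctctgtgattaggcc
The match lay at bases -30 to -25 from the start of C1qb, and at -193 to -188 of C1qc on the opposite strand, where it reads TTCCTC. The same letters were present in 28.3% of the 32851 RefSeq windows of this length, so a match is a description of the window and not a site. The motifs named here and below were chosen after the windows had been read.

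C6 was highest in Kupffer-like nuclei, with hepatocyte-like and stellate-like nuclei next. C6 (ENSMUSG00000022181) encodes a component of the membrane pore that binds C5b. In Kupffer-like nuclei it stood at 1309 and 1604 CPM in the 2 Brca1-WT replicates and at 1084 and 688 in the Brca1-KO-labelled ones (1171 ± 386, SD, n = 4). In hepatocyte-like nuclei it stood at 417 and 128, and at 238 and 241 CPM (256 ± 120). The lowest Kupffer-like library lay above the highest hepatocyte-like library, and the means differed 4.58-fold.

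The ratio to hepatocyte-like nuclei of the same library set C6 apart from the hepatocyte panel. In Kupffer-like nuclei this ratio was 2.86 to 12.6, against at most 1.06 for any of the 15 panel genes in any library. The level was 7.44 to 42.4 times that expected from the panel median. After thinning to 1000 UMIs, 65.6% and 70.5% of Kupffer-like nuclei in the 2 Brca1-WT replicates held a C6 UMI, and 57.99% and 47.4% in the Brca1-KO-labelled libraries. The share was 11.9 to 30.8% in hepatocyte-like nuclei and 3.43 to 7.64% in endothelial-like nuclei. Hepatocyte-like nuclei, the largest class, held 70.5 to 90.02% of all C6 UMIs of the kept nuclei, and Kupffer-like nuclei 6.2 to 22.6%.

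Stellate-like nuclei also held C6. They stood at 355 and 198, and at 130 and 194 CPM (219 ± 95.8), a range that overlapped that of hepatocyte-like nuclei. The ratio to hepatocyte-like nuclei was 0.546 to 1.55 and lay above every panel gene in 4 of 4 libraries. In the other 5 classes C6 lay within or below the panel range in all libraries, except 1 library of cluster 11.

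The C6 window is shown as that of the member whose highest class was Kupffer-like without holding the letters marked in the C1q windows. It lies at chr15:4726960-4727259 on the plus strand (RefSeq, GRCm38.p6).
C6: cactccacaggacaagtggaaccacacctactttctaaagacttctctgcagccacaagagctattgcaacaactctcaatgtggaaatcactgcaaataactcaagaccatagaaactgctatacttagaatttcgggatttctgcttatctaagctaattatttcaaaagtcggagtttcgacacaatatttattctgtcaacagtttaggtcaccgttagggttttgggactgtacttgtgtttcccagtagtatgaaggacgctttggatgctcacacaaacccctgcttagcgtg
None of GAGGAA, TTGCNNAA and GTTAAT, the letters searched on both strands in all windows, occurred in it, which says only that these letters are not in this window.

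**Figure D1:**
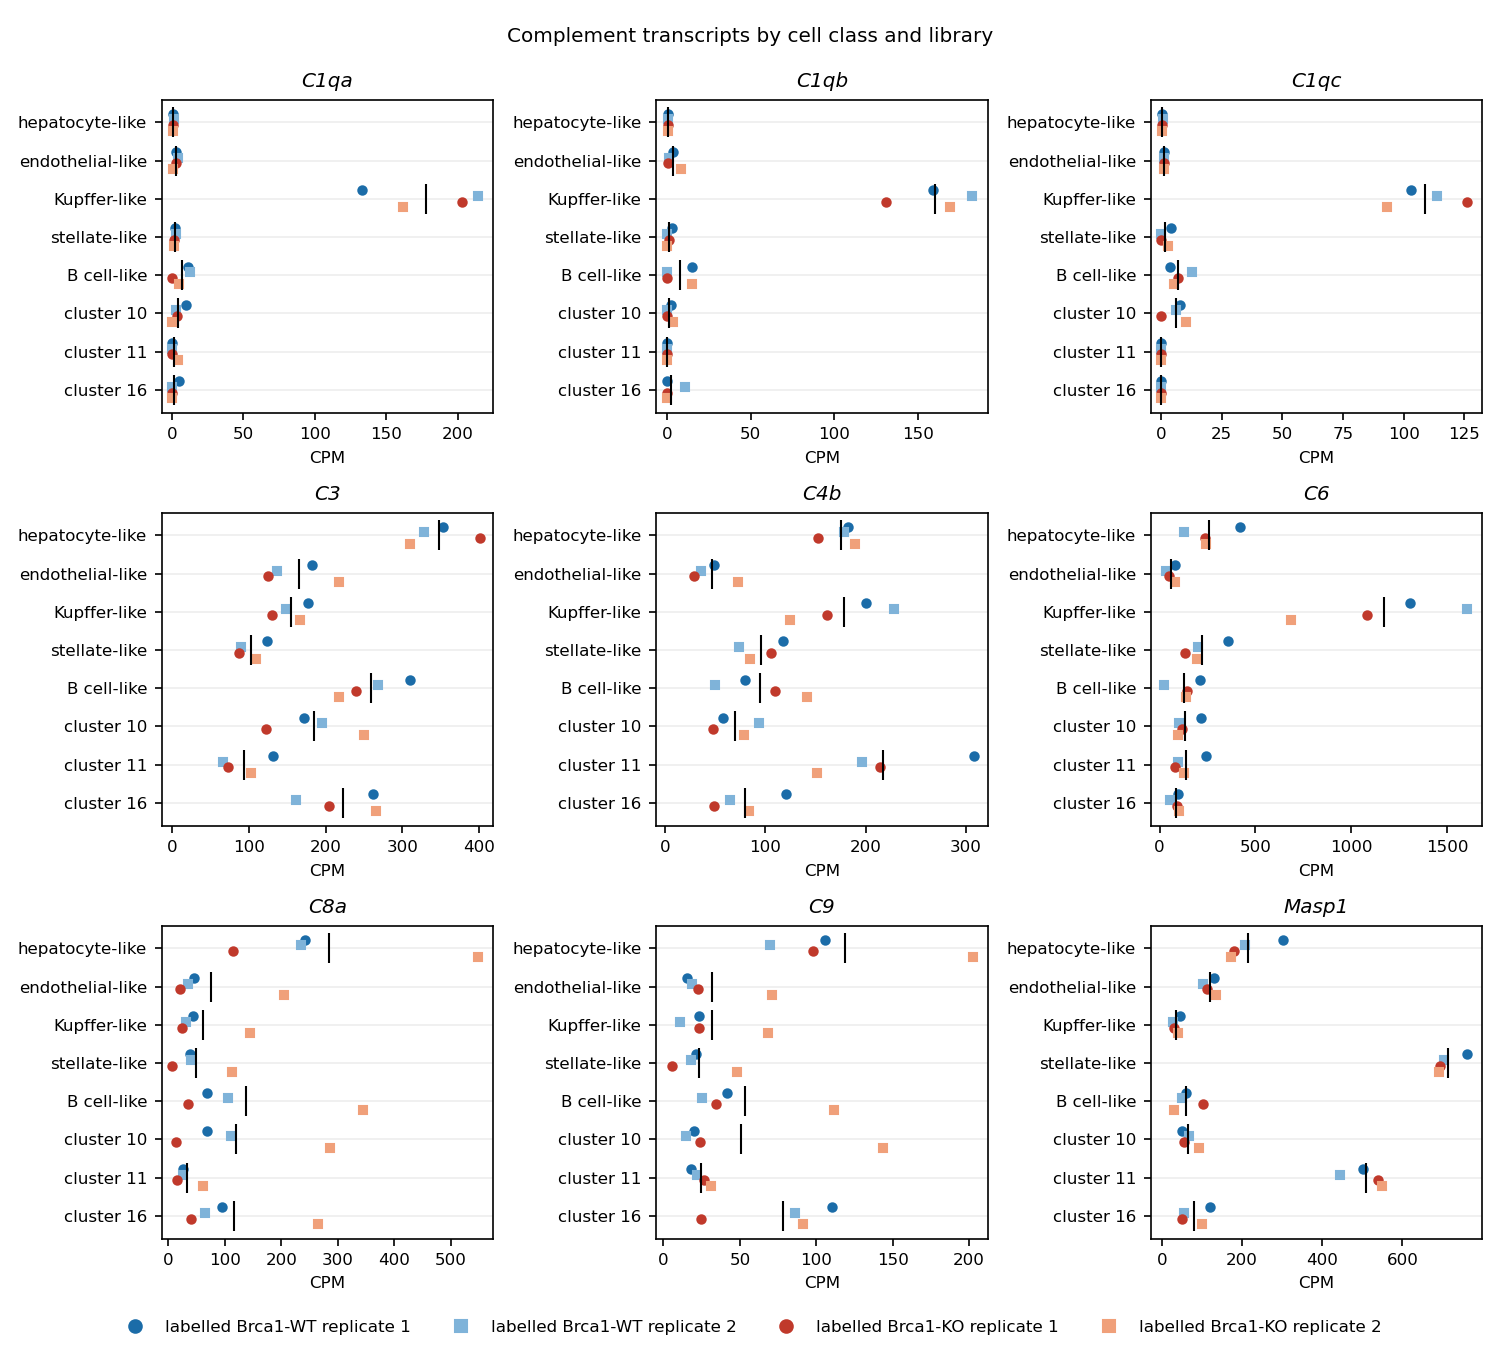
Levels of the 9 complement genes (CPM, horizontal axis, linear and separate for each gene) in 8 cell classes. Points are the 4 libraries and black bars their means; the C1q genes and C6 have their highest points in Kupffer-like nuclei, Masp1 in stellate-like nuclei at 693 to 762, and C8a and C9 in hepatocyte-like nuclei with Brca1-KO-labelled replicate 2 farthest to the right.

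Masp1 was highest in stellate-like nuclei. Masp1 (ENSMUSG00000022887) encodes the MASP-1 protease of the lectin pathway and, by alternative splicing, MASP-3, and this count does not separate the products. Stellate-like nuclei held 762 and 704 CPM in the 2 Brca1-WT replicates and 693 and 693 in the Brca1-KO-labelled ones (713 ± 33.3, SD, n = 4). Cluster 11 followed with 501 and 445, and 540 and 548 CPM (509 ± 47.04), below stellate-like nuclei in every library and without overlap of the ranges.

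Hepatocyte-like nuclei followed in Masp1, with 302 and 207, and 179 and 171 CPM (215 ± 60.2). The mean of stellate-like nuclei was 1.4 times that of cluster 11, and that of cluster 11 was 2.37 times that of hepatocyte-like nuclei. The ratio to hepatocyte-like nuclei was 2.52 to 4.05 in stellate-like nuclei and 1.66 to 3.2 in cluster 11, above every panel gene in all 4 libraries. Endothelial-like nuclei had 103 to 134 CPM, at 0.428 to 0.782 of the hepatocyte-like level, which lay below the highest panel gene in each library. Kupffer-like nuclei were lowest, at 27.7 to 43.9.

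The stellate signal of Masp1 was spread over many nuclei. At 1000 UMIs per nucleus, 45.2 to 46.97% of stellate-like nuclei and 36.1 to 40.3% of cluster 11 held a Masp1 UMI, against 14.4 to 26.1% of hepatocyte-like and 2.97 to 4.37% of Kupffer-like nuclei. Hepatocyte-like nuclei held 83.6 to 85.9% of all Masp1 UMIs and stellate-like nuclei 7.37 to 10.6%. The annotation places the genes Rtp4, Gm45338 and Gm49514 on the opposite strand within Masp1. No source used here says whether counting used strand, so reads of these genes cannot be told apart from those of Masp1 if it did not.

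C4b was highest in 3 classes whose ranges overlapped. C4b (ENSMUSG00000073418) encodes complement C4, the protein cleaved by C1s and MASP-2. It stood at 307 and 196, and at 215 and 152 CPM in cluster 11 (218 ± 65.6, SD, n = 4). Kupffer-like nuclei had 199.9 and 229, and 161 and 124 CPM (178 ± 45.5). Hepatocyte-like nuclei had 183 and 178, and 152 and 189.7 CPM (176 ± 16.2). The order of the 3 is within the spread of the libraries.

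Against the hepatocyte panel, the C4b ratio to hepatocyte-like nuclei in cluster 11 was 0.799 to 1.68 and above every panel gene in 4 of 4 libraries, at 3.67 to 7.73 times the expected level. In Kupffer-like nuclei the ratio was 0.655 to 1.28 and above every panel gene in 3 of 4 libraries, and in stellate-like nuclei in 2 of 4. Hepatocyte-like nuclei held 89.6 to 94.99% of all C4b UMIs. C4b has a close paralog, C4a: 35.2% of all stretches of 50 bases in the C4b transcript, and 38.1% of those in its last 500 bases, occur in C4a as well, so the split of reads between them is uncertain.

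**Figure D2:**
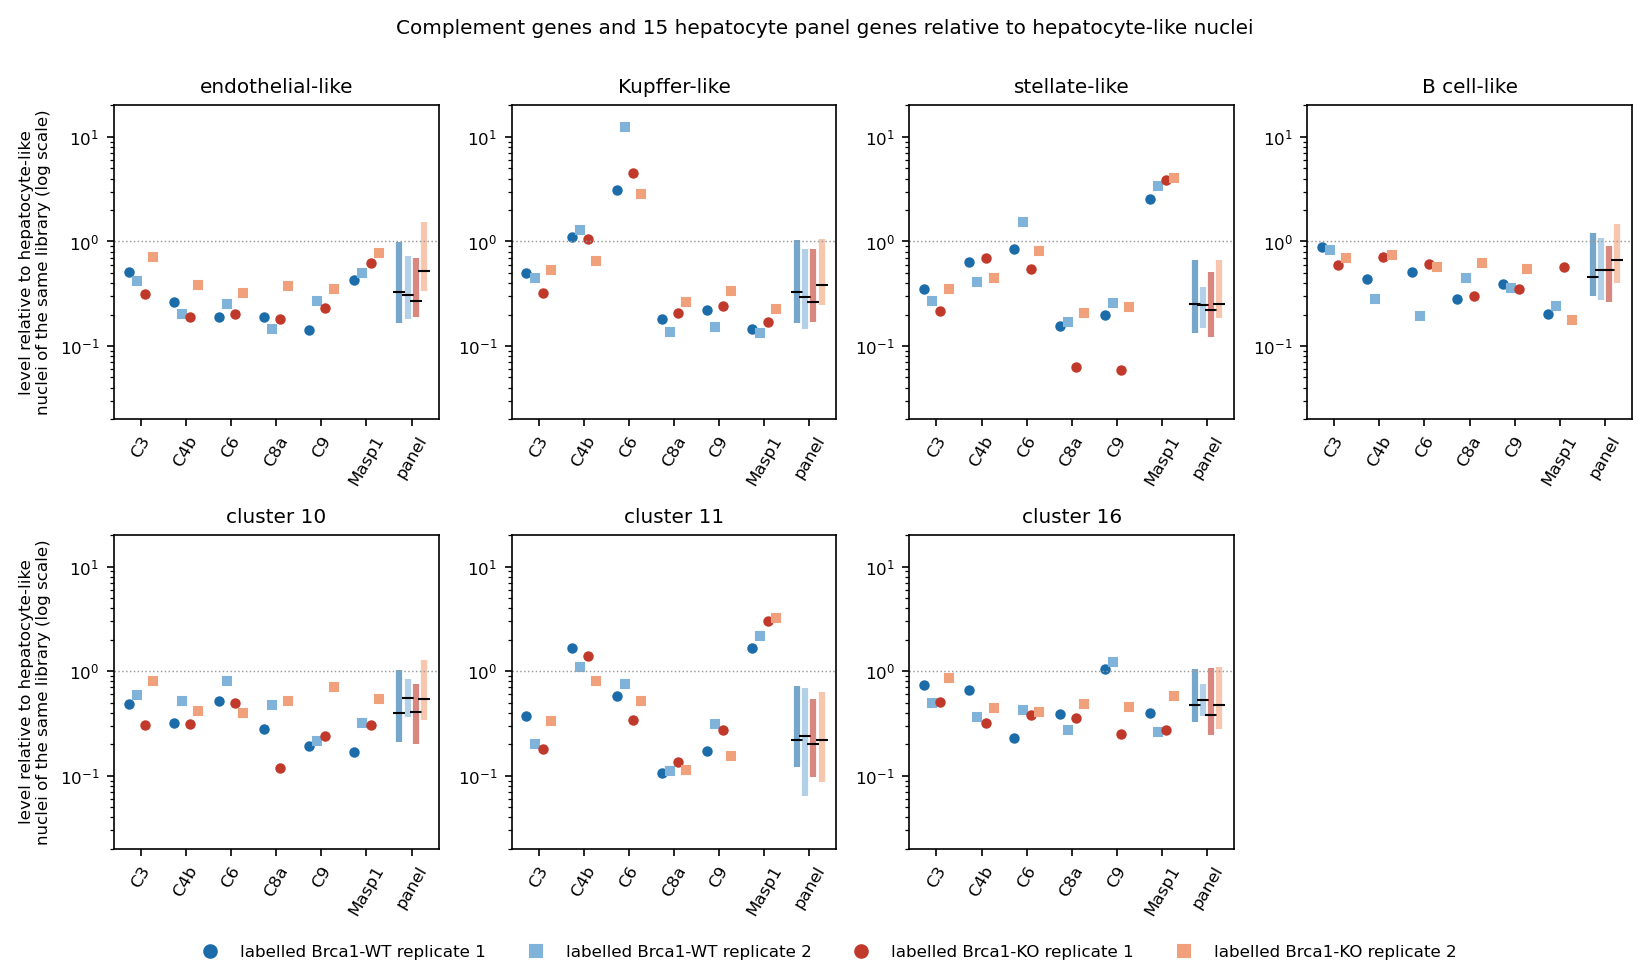
Level of C3, C4b, C6, C8a, C9 and Masp1 in 7 classes relative to hepatocyte-like nuclei of the same library (log scale; dotted line at equal level). Points are libraries, and the vertical bars at the right of each panel span the 15 hepatocyte panel genes with their median as a black dash; C6 in Kupffer-like nuclei (2.86 to 12.6) and Masp1 in stellate-like nuclei (2.52 to 4.05) lie above the bars of all 4 libraries.

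C3, C8a and C9 had their highest means in hepatocyte-like nuclei. C3 (ENSMUSG00000024164), whose cleavage products coat targets, stood at 353 and 328 CPM in hepatocyte-like nuclei of the 2 Brca1-WT replicates and at 402 and 310 in the Brca1-KO-labelled ones (348 ± 39.9, SD, n = 4). It was higher there than in B cell-like nuclei, the class of the next highest mean, in 4 of 4 libraries, although the ranges touched (218 to 309.99 in B cell-like nuclei). No library of any other class had C3 above the highest panel gene, and 89.99 to 95.8% of its UMIs lay in hepatocyte-like nuclei. The annotation places the microRNA gene Mir6978 within C3 on the same strand.

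C8a differed widely between libraries. C8a (ENSMUSG00000035031) encodes the alpha chain of C8, which joins the growing pore. It stood at 243 and 235 CPM in the 2 Brca1-WT replicates, 114 in Brca1-KO-labelled replicate 1 and 548 in Brca1-KO-labelled replicate 2 (285 ± 185). The libraries of the latter label lay on both sides of the former. C9 (ENSMUSG00000022149), which polymerises into the pore, stood at 106 and 69.9, and at 97.8 and 202 CPM (119 ± 57.6), and the highest library was the same. Cluster 16, the class of the next highest mean, had C9 at 111 and 86.2, and at 24.6 and 91.1 CPM. C9 was thus higher in hepatocyte-like nuclei in only 2 of 4 libraries. In both Brca1-WT replicates cluster 16 was higher, on 22 and 8 UMIs. Of all UMIs in the kept nuclei, hepatocyte-like nuclei held 95.8 to 97.7% for C8a and 95.5 to 97.04% for C9. In the other 7 classes C8a lay below the highest panel gene in every library, and C9 did so except in 1 library of cluster 16, at 8 UMIs. The annotation has Gm17662 on the opposite strand within C8a, with the same limit on strand as for Masp1.

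The C8a level of Brca1-KO-labelled replicate 2 was not confined to its own clusters. Cluster 3, which all libraries shared, held 47 of its nuclei, with C8a at 820 CPM against 331, 323 and 160.01 in Brca1-WT replicates 1 and 2 and Brca1-KO-labelled replicate 1. In cluster 2, with 80 of its nuclei, C8a stood at 508 against 206, 179.5 and 79.3. C9 in cluster 3 stood at 314 against 191, 113 and 142 CPM.

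The windows of C8a and C9 are shown because these genes shared their class and their highest library. The C8a window lies at chr4:104876349-104876648 on the minus strand and the C9 window at chr15:6445096-6445395 on the plus strand (RefSeq, GRCm38.p6). Capitals mark GTTAAT, a half-site of the hepatocyte factor HNF1, in C8a and TTGCNNAA, a motif of C/EBP factors, in C9.
C8a: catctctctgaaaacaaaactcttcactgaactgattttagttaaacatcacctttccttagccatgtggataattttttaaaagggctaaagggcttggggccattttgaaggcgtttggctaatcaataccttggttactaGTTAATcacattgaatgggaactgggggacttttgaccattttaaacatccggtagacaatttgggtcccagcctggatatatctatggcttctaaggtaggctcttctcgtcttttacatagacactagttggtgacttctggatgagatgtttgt
C9: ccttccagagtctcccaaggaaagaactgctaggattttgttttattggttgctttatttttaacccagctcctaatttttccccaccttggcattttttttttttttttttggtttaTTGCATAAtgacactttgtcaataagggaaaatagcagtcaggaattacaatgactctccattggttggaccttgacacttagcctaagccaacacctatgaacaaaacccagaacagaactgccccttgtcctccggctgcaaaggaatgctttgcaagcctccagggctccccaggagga
The half-site lay at bases -107 to -102 of C8a, and 7.1% of all windows hold these letters. The C/EBP letters lay at -132 to -125 of C9 as TTGCATAA and at -45 to -38 of the C3 window as TTGCGAAA, and 10.8% of all windows hold them. RefSeq windows were matched for 6 of the 9 members, and C1qa, C4b and Masp1 are named only.

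Within hepatocyte-like nuclei the members differed along the lobule, the unit in which blood runs from the portal vein to the central vein. Nuclei of each library were ranked by 6 pericentral minus 6 periportal genes and cut into 3 parts of equal number, which are ranges of a score and not cell types; 82 to 332 nuclei per library lay within 0.1 SD of the lower cut and 251 to 462 of the upper. Cyp1a2, a pericentral gene left out of the score, was 12.2 to 18.02 times higher in the pericentral part, and the periportal genes Ass1 and Pck1, also left out, stood there at 0.495 to 0.816 and 0.433 to 0.883 of their periportal level.

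C6 was higher toward the central vein. Its level went from 217 to 572 CPM in Brca1-WT replicate 1 and from 34.7 to 234 in Brca1-WT replicate 2, from the periportal to the pericentral part. In the Brca1-KO-labelled libraries it went from 88.1 to 365 and from 137 to 357. The middle part lay between in all 4 libraries, and the ratio was 2.61 to 6.75.

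C9 and C8a ran the other way. C9 went from 171 to 49.9 and from 117 to 25.8 CPM in the 2 Brca1-WT replicates, and from 141 to 42.7 and from 321 to 87.1 in the Brca1-KO-labelled ones, ratios of 0.222 to 0.304. The C8a ratio was 0.456 to 0.580, with 725 CPM in the periportal and 416 in the pericentral part of Brca1-KO-labelled replicate 2. Both were thus highest in that library in all 3 parts. The C3 ratio was 0.623 to 0.781 and that of C4b 0.821 to 0.920, each below 1 in 4 of 4 libraries. Masp1 was nearly level, at 0.970 to 1.04.

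With a score made only of Cyp1a2, Rhbg, Ass1 and Pck1, 4 of these contrasts shrank. The mean ratio of C6 went from 4.04 to 1.79, that of C9 from 0.272 to 0.574 and that of C3 from 0.723 to 0.803, each with its direction kept in 4 of 4 libraries. The C8a mean went from 0.517 to 0.902, and its direction turned in Brca1-KO-labelled replicate 1, where the ratio was 1.11 against 0.700 to 0.921 in the other 3 libraries. C4b did not shrink, at a mean of 0.847 against 0.876. The second score set genes of the first less far apart. Periportal Cyp2f2 and pericentral Cyp2e1 had ratios of 0.193 to 0.768 and 1.44 to 3.21, and were least apart in Brca1-KO-labelled replicate 1. With the first score, which holds both, these were 0.0133 to 0.0199 and 6.37 to 22.9. Glul, also in the first score, stood at 14.4 to 29.8. Rhbg lay at 0 to 4.19 CPM. Whether this weaker separation moved the members was not tested. Median depth per part was 5829.5 to 9757 UMIs with the first score and 5282 to 10111.5 with the second. The widest gaps between parts of a library were from 6644 to 8650 with the first, in Brca1-KO-labelled replicate 2, and from 7823 to 9884 with the second, in Brca1-WT replicate 1.

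**Figure D3:**
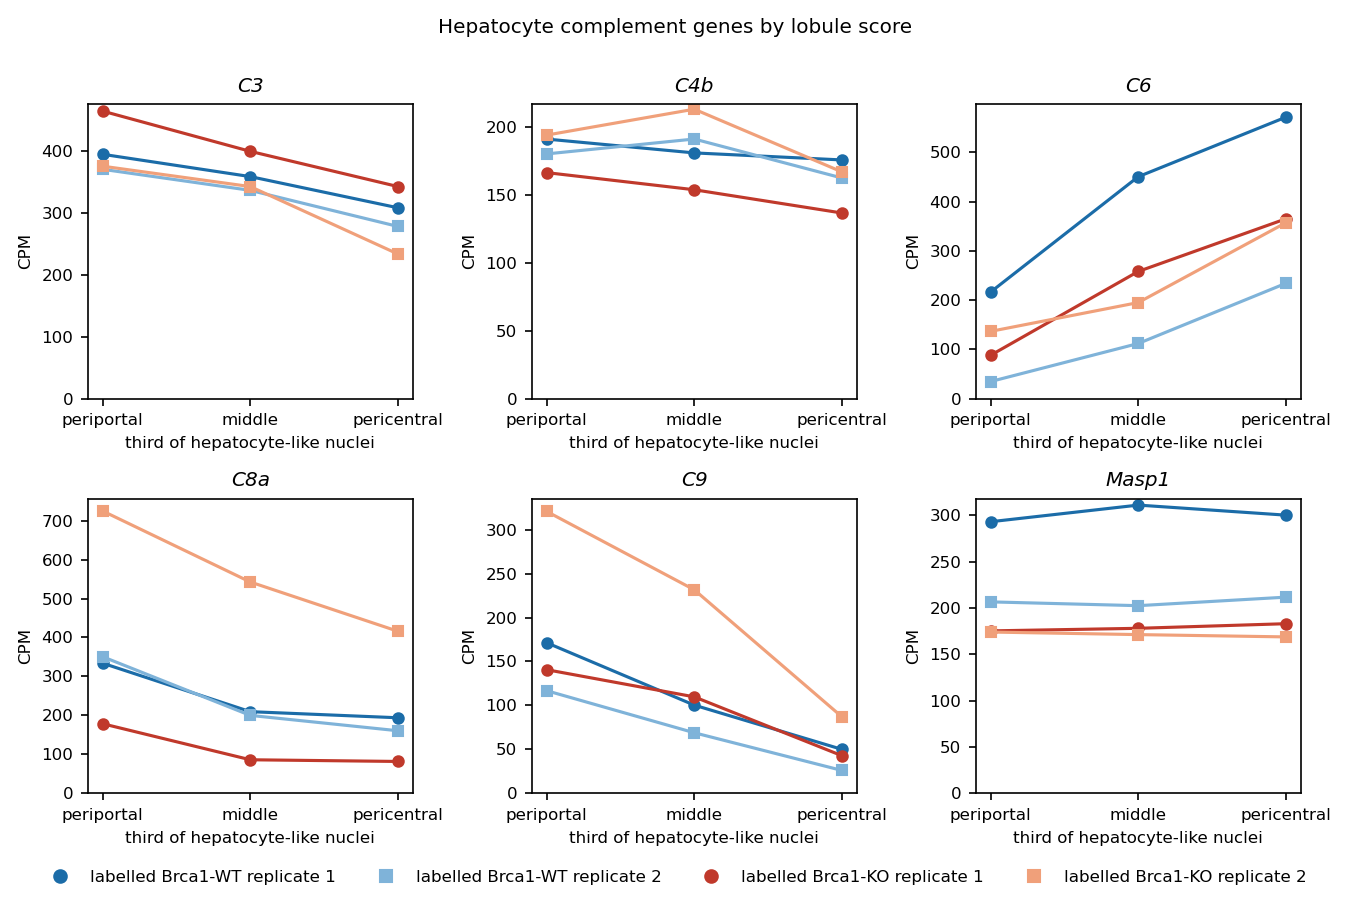
Levels of 6 complement genes (CPM, vertical axis from 0) in 3 equal parts of hepatocyte-like nuclei ordered from periportal to pericentral within each library. Lines are the 4 libraries; C6 climbs in each of them, C8a and C9 descend in each, and Masp1 keeps a ratio of 0.970 to 1.04.

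The genes most alike to each member over the 32 sums of class and library were sought among 15207 genes of at least 10 CPM in at least 1 sum. These sums share libraries, depths and carried RNA, so the Pearson correlations (r) of log2 levels are descriptive. C8a was most like Ttr (transthyretin, r = 0.948), Hsd3b3 (0.941) and Slc17a2 (0.939). Among the 3 genes most like C3 were Baat, which conjugates bile acids (r = 0.897), and Trf (transferrin, 0.896). C9 was most like Akr1c14 (r = 0.882), Wwc1 (0.878) and Gm4756 (0.878). Masp1 was most like Ptprk (r = 0.951), Actn4 (0.945) and Fgfr2 (0.929).

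Among the C1q genes, C1qa was most like Slit1 (r = 0.911), Phc2 (0.894) and Naip1 (0.890). C1qb was most like Pcolce2 (r = 0.906), Gbp2b (0.905) and Spic (0.901), a transcription factor of red pulp macrophages and some Kupffer cells. C1qc was most like Spic (r = 0.901), Ksr2 (0.891) and Phc2 (0.885). C6 and C4b had the lowest of these values: C6 was most like Gm16000 (r = 0.794), Gm50105 (0.785) and Ankrd66 (0.778), and C4b most like Lrp1 (r = 0.831), Cpq (0.783) and Bmpr1a (0.772).

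By label, no member was called in any class. The UMI sums of each class were compared with edgeR's quasi-likelihood test, and genes with p below 0.05 after Benjamini-Hochberg adjustment over the class were said to pass. Hepatocyte-like nuclei had 0 passing genes among 15113 (percent called 0), Kupffer-like nuclei 0 of 8464, stellate-like nuclei 0 of 9049 and cluster 11 0 of 4555 (percent called 0 in each). At an unadjusted p below 0.05 there were 502, 381, 342 and 220 genes. DESeq2 called 23 genes in hepatocyte-like nuclei, none of them a complement gene listed here, and 0 in each of the other 3. The other 4 classes had 0 of 11161 (endothelial-like), 0 of 4108 (B cell-like), 0 of 6009 (cluster 10) and 0 of 3275 genes (cluster 16), with 269, 335, 154 and 135 at an unadjusted p below 0.05 and 0 by DESeq2. Members gave 50 tests over the 8 classes, of which 0 passed by either tool.

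The contrast was followed in 15 pairs of a member and a class: the C1q genes in Kupffer-like nuclei, the other 6 in hepatocyte-like nuclei, and those of the 6 that lay above every panel gene in at least 3 libraries of another class. In 9 pairs the labels overlapped, in 5 the Brca1-KO-labelled pair was wholly lower than the Brca1-WT pair, and in 1 wholly higher. The background of genes whose labels did not overlap was 19.7% below and 11.5% above in hepatocyte-like nuclei, 21.2% and 12.1% in Kupffer-like nuclei, 19.5% and 12.8% in stellate-like nuclei, and 17.5% and 16% in cluster 11. In the classes with no pair it was 22% and 10.6% (endothelial-like), 23.2% and 15.8% (B cell-like), 16% and 12.7% (cluster 10) and 17.2% and 15.5% (cluster 16). By edgeR, 2 of the 15 had an unadjusted p below 0.05, and both were in Kupffer-like nuclei.

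Those 2 were C6 and C4b. For C6 in Kupffer-like nuclei the log2 fold change (Brca1-KO minus Brca1-WT) came to −0.66, standard error (SE) 0.27 (edgeR unadjusted p = 0.0442, adjusted p = 0.95), lower in 2 of 2 libraries. For C4b it was −0.53 with an SE of 0.22 (edgeR unadjusted p = 0.0439, adjusted p = 0.95). Without Brca1-KO-labelled replicate 2 they were −0.39 and −0.37, and without Brca1-KO-labelled replicate 1 they were −0.97 (adjusted p = 0.0778) and −0.68 (0.259). The 8 Kupffer markers, summed, were lower in the same libraries, at 6864 and 7555 CPM against 5289 and 4748, and their part in these values was not tested. C6 in stellate-like nuclei had a log2 fold change of −0.70 with an SE of 0.31 (edgeR adjusted p = 0.994), and −0.25 without Brca1-WT replicate 1, its highest library; the 9 stellate markers summed to 18577 and 16284 CPM there against 18726 and 17412, with overlap.

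The C1q genes had overlapping labels. Their log2 fold changes in Kupffer-like nuclei were 0.13 for C1qa, −0.10 for C1qb and 0.07 for C1qc, with SEs of 0.24 to 0.28 and edgeR adjusted p-values of 0.981 to 0.988. Each changed sign when 1 library was left out. For C1qa it was −0.17 without Brca1-WT replicate 1, for C1qb 0.01 without Brca1-WT replicate 2 and 0.10 without Brca1-KO-labelled replicate 1, and for C1qc −0.11 without the latter.

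Masp1 had values of both signs. In hepatocyte-like nuclei the log2 fold change was −0.49 with an SE of 0.25 (edgeR unadjusted p = 0.102, adjusted p = 0.989), lower in 2 of 2 libraries. In stellate-like nuclei it was −0.03 with an SE of 0.16, and this SE was the smallest among the 15 pairs. In cluster 11 it was 0.22 with an SE of 0.22, higher in 2 of 2 libraries. The difference between cluster 11 and hepatocyte-like nuclei, from 1 model with the library as a block, was 0.76 with an SE of 0.33 (edgeR unadjusted p = 0.0201, adjusted p = 1.0), where 3 of 15001 genes (0.02%) passed. In 60 such differences of a member from hepatocyte-like nuclei over the 7 other classes, 0 passed. The background share of genes that passed was 0% for endothelial-like, 0.0374% for Kupffer-like, 0.118% for stellate-like and 0.0679% for B cell-like nuclei, 0.0327% for cluster 10 and 0.0136% for cluster 16. The smallest unadjusted p was that of C1qa in Kupffer-like nuclei (log2 difference 1.47, SE 0.41, edgeR unadjusted p = 0.000464, adjusted p = 0.392), where the hepatocyte-like side rested on 12 to 36 UMIs per library.

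The hepatocyte contrasts of C8a and C9 rested on 1 library. C8a had a log2 fold change of 0.55 with an SE of 0.73, C9 of 0.84 with 0.43 (edgeR unadjusted p = 0.486 and 0.111, adjusted p = 0.989 each). Without Brca1-KO-labelled replicate 2, C8a went to −1.05 and C9 to 0.17. Without Brca1-KO-labelled replicate 1, both went to 1.30 (adjusted p = 0.113 and 0.185). With that library left out, the lone remaining library of its label is assumed to vary as the others do. Calls of C8a and C9 from that fit are not listed here. In endothelial-like, Kupffer-like, stellate-like and B cell-like nuclei and cluster 10 both genes lay below the highest hepatocyte panel gene in every library. That lone library also stood apart in endothelial-like nuclei, of which 86.8% lay in cluster 1 against 17.7 to 46.9% in the other 3 libraries. The median share of the hepatocyte level that the hepatocyte panel genes reached was 0.525 there, against 0.273 to 0.330, 0.384 against 0.263 to 0.330 in Kupffer-like, 0.254 against 0.224 to 0.251 in stellate-like and 0.664 against 0.455 to 0.534 in B cell-like nuclei, and 0.546 against 0.394 to 0.552 in cluster 10. The part of these values in the levels of C8a and C9 was not tested. With all 4 libraries, C9 passed in endothelial-like and Kupffer-like nuclei and cluster 10 when no filter on low counts was applied.

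C3, C4b and C6 in hepatocyte-like nuclei had log2 fold changes of 0.11, −0.02 and −0.13 with SEs of 0.22, 0.21 and 0.55 (edgeR adjusted p = 0.989 to 0.999). C3 turned to −0.04 and C4b to 0.17 without Brca1-KO-labelled replicate 1. For C6 the spread within the Brca1-WT label, 417 against 128 CPM, was wider than the gap between the labels, and the value was 0.95 without Brca1-WT replicate 1 and −0.73 without Brca1-WT replicate 2. C4b in cluster 11 had −0.44 with an SE of 0.29 (edgeR adjusted p = 0.99). The median log2 fold change of members was −0.13 in hepatocyte-like nuclei (9 tested) and 0.03 in Kupffer-like nuclei (9 tested), beside −0.01 and 0.01 over all genes tested there. It was 0.27 in endothelial-like (6 tested), 0.21 in B cell-like (5) and 0.0004 in stellate-like nuclei (6). In clusters 10, 11 and 16 it was 0.06 (5 tested), −0.31 (4) and −0.10 (6).

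**Figure D4:**
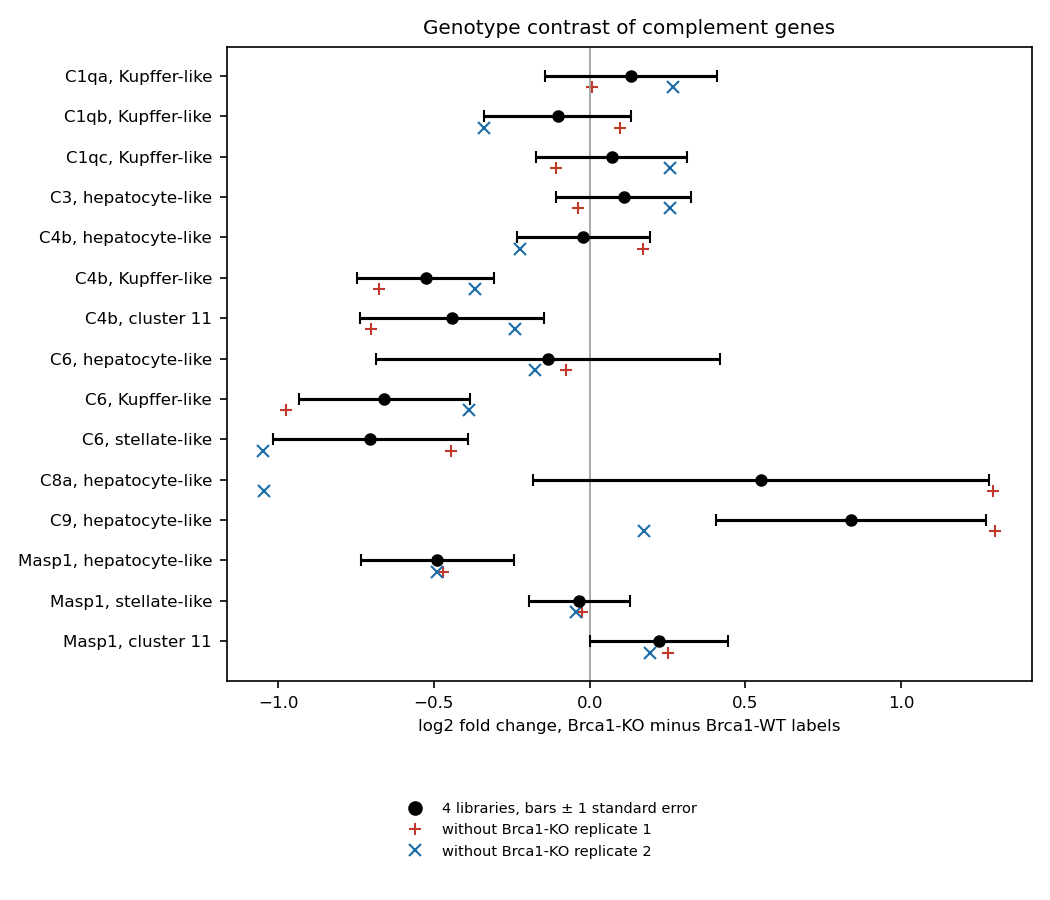
Log2 fold change between the labels (Brca1-KO minus Brca1-WT, horizontal axis) for 15 pairs of a complement gene and a class. Black points are fits to 4 libraries with bars of ± 1 standard error, and crosses are fits without 1 of the Brca1-KO-labelled libraries; C8a in hepatocyte-like nuclei runs from −1.05 to 1.30 between the crosses.

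The other complement genes placed the rest of the cascade. Of the 44, 22 had their highest mean in hepatocyte-like nuclei, 5 in endothelial-like, 5 in Kupffer-like and 3 in stellate-like nuclei, 1 in B cell-like nuclei, 4 each in clusters 11 and 16 and 0 in cluster 10. No minimum count was required, and some of these placements rested on few UMIs, as low as 3 over all classes. In Kupffer-like nuclei Vsig4, a receptor for C3 fragments, stood at 863 ± 192 CPM, Cfp (properdin, which stabilises the alternative pathway) at 116 ± 36.9 and Fcna (ficolin A) at 79.1 ± 15.8 (SD, n = 4). In stellate-like nuclei, beside Masp1, the collectins Colec10 and Colec11 stood at 1335 ± 145 and 415 ± 179.7. Proteins of Colec10 and Colec11 are known to form complexes with MASP proteases.

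Cluster 11 had the highest mean of C7 (253 ± 122 CPM), the pore component after C6, against 74.5 ± 59.7 in stellate-like nuclei. Its means of Cd46, a membrane regulator, and C1ra, a protease, did not stand apart from the next class: Cd46 was at 116 ± 15.03 against 105 ± 28.2 in stellate-like nuclei, and C1ra at 23.1 ± 5.41, from 4 to 8 UMIs per library, against 22.6 ± 6.57 in hepatocyte-like nuclei. Endothelial-like nuclei had the highest means of the membrane regulators Cd55 (561 ± 71.3) and Cd59a (174 ± 74.6). Cr1l stood there at 146 ± 16.8, within the spread of cluster 11 at 126 ± 43.1. Cluster 16 had the highest means of Itgam and Itgax, chains of the integrin receptors for C3 fragments, at 162 ± 18.5 and 131 ± 46.4, while Itgb2, the chain they share, was at 107 ± 35.5 there and at 99.3 ± 24.3 in cluster 10. The receptor Cr2 was highest in B cell-like nuclei at 131 ± 39.7.

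**Figure D5:**
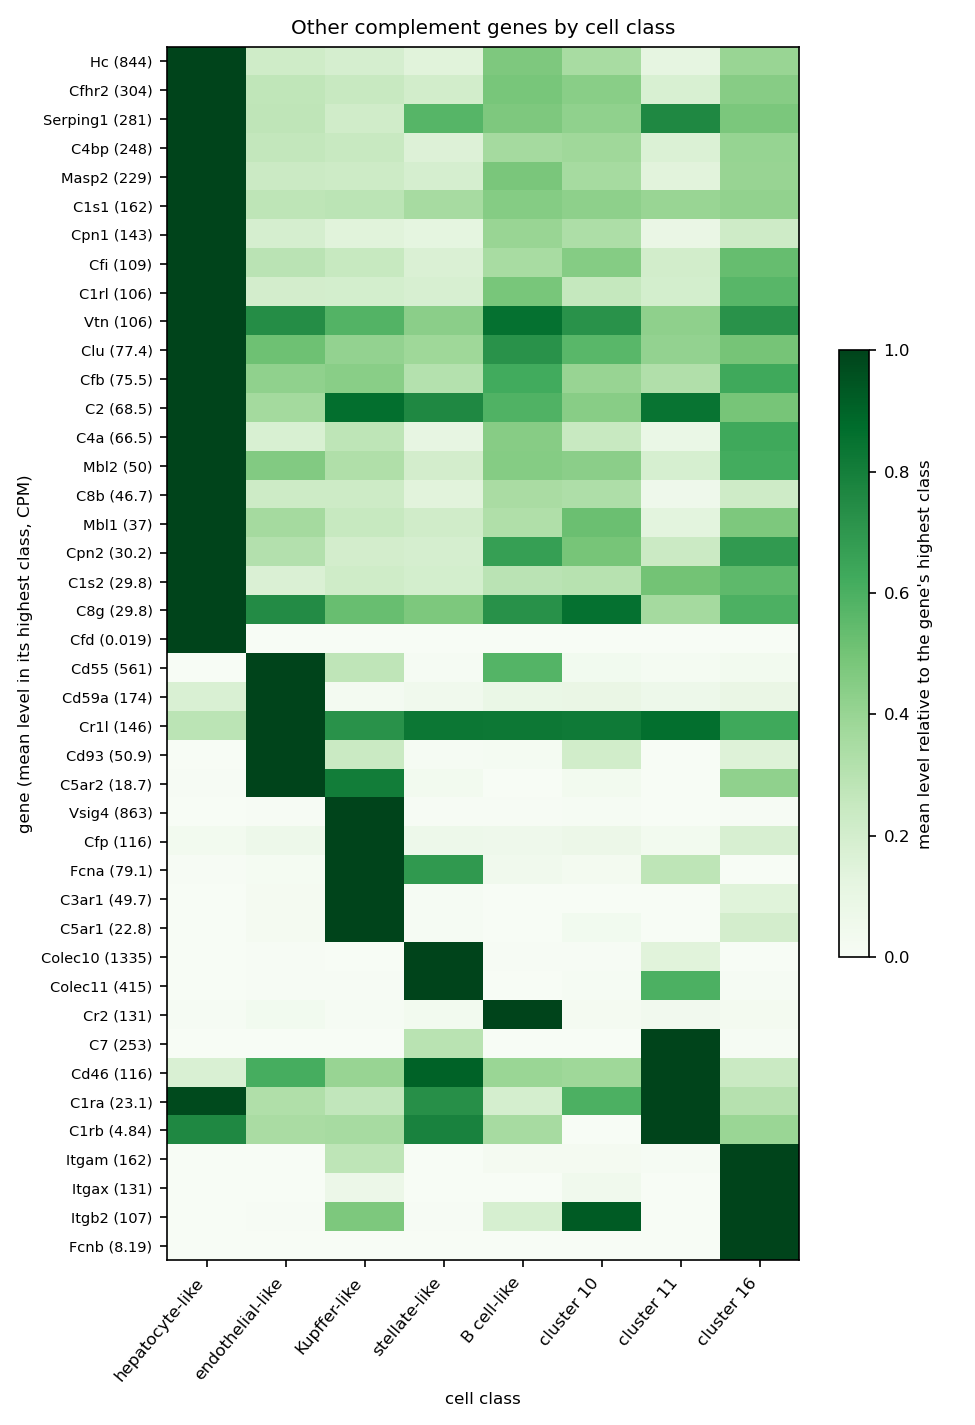
Mean level of the other complement genes reported here in each of 8 classes, as a share of the level in the gene's highest class (color, 0 to 1); the number after each symbol is that highest mean in CPM. The largest block of rows is darkest in hepatocyte-like nuclei, Vsig4 (863) leads the Kupffer-like block and Colec10 (1335) the stellate-like block.

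None of the other complement genes passed by label (0 of 179 tests by edgeR and by DESeq2). Among those of smallest unadjusted p, the collectin Colec11 was at 619.8 and 512 CPM in stellate-like nuclei of the 2 Brca1-WT replicates and at 268 and 260.3 in the Brca1-KO-labelled ones (log2 fold change −1.05, SE 0.17, edgeR unadjusted p = 0.000403, adjusted p = 0.994). It passed when no filter on low counts was applied, and its log2 fold change was −1.16 to −0.93 with 1 library left out. In cluster 11 Colec11 was at 326 and 319 against 180.1 and 165, and C7 at 322 and 384 against 184 and 120.3 (log2 fold change −1.18, SE 0.27, edgeR adjusted p = 0.937). Colec10 was the other way in cluster 11, at 95.2 and 162 against 195 and 303. With 1 library left out, the log2 fold change in cluster 11 ranged from −1.51 to −0.93 for C7 and from 0.63 to 1.41 for Colec10.

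In hepatocyte-like nuclei the 4 genes of smallest unadjusted p were Cd55, Cpn2, Mbl2 and Mbl1 (edgeR adjusted p = 0.989 each). The mannose-binding lectins Mbl1 and Mbl2 had values of opposite sign, at 54.1 and 36.5 against 24.8 and 32.7 CPM for Mbl1 and 45.7 and 39.3 against 49.9 and 65.1 for Mbl2. In Kupffer-like nuclei they were Cfhr2, Cd55, Hc and Fcna. They included Colec11, Cfhr2 and Fcna in stellate-like nuclei, Cpn1, Cfhr2 and C1rl in endothelial-like nuclei, Cpn1 and Hc in B cell-like nuclei, Cd46, Clu and Cfhr2 in cluster 10, and Masp2, Cfhr2 and Itgb2 in cluster 16. Of the genes named outside hepatocyte-like nuclei, Cfhr2, Hc, Cpn1, C1rl, Clu and Masp2 had their highest mean in hepatocyte-like nuclei. Hc stood at 0.484 to 0.677 times the level expected from the hepatocyte panel in Kupffer-like nuclei and at 0.653 to 1.085 times in B cell-like nuclei. C1rl stood at 0.456 to 0.64 times in endothelial-like nuclei. The part of carried hepatocyte RNA in these contrasts was not tested. The median log2 fold change of the tested members of the 44 was 0.05 in hepatocyte-like (34 tested), 0.12 in Kupffer-like (30), 0.18 in stellate-like nuclei (25) and −0.33 in cluster 11 (14), beside medians of −0.01 to 0.01 over all genes tested there. It was larger in B cell-like (0.61, 15 tested) and endothelial-like nuclei (0.25, 33) and cluster 10 (0.22, 17), and 0.02 in cluster 16 (11). The medians over all genes tested in these classes were at most 0.02.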

How the data were processed

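The authors deposited raw UMI counts, written by Cell Ranger 6.0.0 per the file headers, with no normalization. The submitters' processing notes name the human build GRCh38, while all gene identifiers are mouse; no source used here gives the mouse build or says whether intronic reads or strand were counted. The molecule is labelled genomic DNA. Gene overlaps come from GENCODE annotation and start windows from RefSeq.

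Barcodes with at least 500 genes and at most 5% mitochondrial UMIs were kept, and Scrublet doublets were removed. The removed share was 11.3 and 7.33% in Brca1-WT replicates 1 and 2. It was lower in the Brca1-KO-labelled replicates 1 and 2, at 5.01 and 2.99%. Libraries held 36662067 to 45638888 UMIs. Clustering used scanpy 1.11.5 (2000 variable genes without complement genes, 30 components, 15 neighbours, Leiden resolution 1, python-igraph 0.11.9; 22 clusters), with no batch correction. A cluster was named where at least 3 markers were in at least 10% of nuclei, its score was at least 1.5 times the next, and no other class had more markers among its top 10 genes; the score was set after the data were seen. Left out were 158 nuclei of 4 classes, with under 30 nuclei in some library.

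UMIs were summed per class and library and compared with edgeR 4.0.16 (TMM, filterByExpr, robust glmQLFit, glmQLFTest; R 4.3.3), tested on simulated data; DESeq2 1.42.0 was an alternative, with other scaling, no filter, libraries left out, a replicate block, doublets kept and clustering on all variable genes. P-values measure only the spread between these libraries. Members and lists were chosen with earlier results of these data known. Named were the members, up to 4 other complement genes of smallest p per class, up to 3 highest per class, and the 3 genes most alike to each member. A few of these are not reported here. An expected level is the median panel ratio times the level in the source class.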

Additional observations from a re-analysis of the deposited data

Results flagged for a closer look

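Masp1 was flagged because the Brca1-KO-labelled pair was wholly higher than the Brca1-WT pair in cluster 11 (log2 fold change 0.22, standard error 0.22) and wholly lower in hepatocyte-like nuclei (−0.49) and stellate-like nuclei (−0.03). The difference between cluster 11 and hepatocyte-like nuclei did not pass (0.76, standard error 0.33, edgeR adjusted p = 1.0). The difference between cluster 11 and stellate-like nuclei was not tested. The stellate-like value turned to 0.01 without Brca1-WT replicate 1, and the cluster 11 value was 0.15 to 0.32 with 1 library left out. With 2 libraries per label, no group was large enough to look for single libraries far from the others.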

How the results depend on the processing

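Each of the 9 members kept its highest class in 7 of 7 settings. The setting that kept doublets left a cluster of 2150 nuclei, with Egfl7 and Flt4 among its top genes, unnamed and outside the endothelial-like class. With doublets kept, C1qa, C1qb and C1qc in Kupffer-like nuclei went to 110.1, 99.9 and 69.4 CPM and Masp1 in stellate-like nuclei to 575 CPM; after subtraction of expected hepatocyte RNA, Masp1 there went to 660.5 CPM. With a lobule score from held-out genes the ratios were 0.803 for C3, 1.79 for C6, 0.902 for C8a and 0.574 for C9. The cause of these shifts was not tested.

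The count of genes passing by label, 0 in each class, went to 23 with DESeq2 in hepatocyte-like nuclei. Without a filter on low counts it was 2 in hepatocyte-like, 39 in endothelial-like, 74 in Kupffer-like, 20 in stellate-like and 11 in B cell-like nuclei, 19 in cluster 10, 6 in cluster 11 and 11 in cluster 16. With all variable genes it was 1 in the monocyte and dendritic-like cluster that stood in for cluster 16 and held 68.97% of its nuclei. With 1 library left out it ranged from 0 to 29 in hepatocyte-like, 0 to 606 in endothelial-like, 0 to 183 in Kupffer-like, 0 to 156 in stellate-like and 2 to 130 in B cell-like nuclei, 0 to 148 in cluster 10, 1 to 74 in cluster 11 and 1 to 6 in cluster 16; the highest count was in each class without Brca1-KO-labelled replicate 1. The difference of effects in Kupffer-like nuclei passed for 10 genes with DESeq2 size factors, against 6.

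Replicate numbers did not pair the libraries: deviations of same-numbered libraries correlated at −0.15 to 0.19. With the replicate block 0 genes passed in each class and C6 in hepatocyte-like nuclei turned to 0.10. The crossed pairing, chosen after seeing the data, gave 1 gene each in Kupffer-like nuclei, B cell-like nuclei and cluster 11.

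Among the log2 fold changes of named genes under the settings that keep all libraries, 234 kept their sign and side of the threshold, 1 (Colec11 in stellate-like nuclei) came to pass and 3 changed sign: C6 in hepatocyte-like nuclei with the replicate block (0.10), C1qb in Kupffer-like nuclei with doublets kept (0.11), and C4b in hepatocyte-like nuclei without a filter (0.0068). With 1 library left out, log2 fold changes that changed sign ranged, in Kupffer-like nuclei, from −0.17 to 0.53 for C1qa, −0.34 to 0.10 for C1qb, −0.11 to 0.26 for C1qc and −3.51 to 0.13 for Cd55. In hepatocyte-like nuclei they ranged from −0.037 to 0.26 for C3, −0.22 to 0.17 for C4b, −0.73 to 0.95 for C6 and −1.05 to 1.30 for C8a. They ranged from −0.064 to 0.0064 for Masp1 in stellate-like nuclei, −0.19 to 1.62 for Cfhr2 in cluster 10, and in cluster 16 from −0.53 to 1.03 for Cfhr2 and −0.10 to 0.98 for Itgb2. Low counts limit C1q outside Kupffer-like nuclei and all members in clusters 11 and 16.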
